A study of Mus musculus with 22 samples.

Results

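The 9 B lymphocyte genes Cd79a, Cd79b, Ms4a1, Cd22, Cr2, Pax5, Blk, Fcer2a and Fcrla, were followed in heart tissue of mice under chronic psychological stress. The 9 members were taken by their symbol from the 21898 genes of the deposited table and all 9 were present. The treatment group comprised 4 mice that went through the stress procedure and were injected intraperitoneally 2 times a day with JWH133, an agonist of the cannabinoid receptor CB2R, at 10 mg/kg for 3 weeks. The case group comprised 4 mice that went through the stress procedure without the agonist, and the control group comprised 3 unstressed mice. All animals were 6-week-old males, no genetic alteration was described, and whether the case and control mice received a vehicle injection is not given in the sources used here. Each library was made from the heart of a separate mouse, and 29410822 to 34412849 reads were counted per library. The libraries of a group are named here by the letters a to d of their columns. The table numbers its groups without naming them, and every group name below rests on the key described with the processing.

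B cells recognise antigen with a surface immunoglobulin that signals through the Cd79a and Cd79b chains, and the signal is passed on by kinases of the Src family such as Blk and Lyn and by Syk. The response is tuned by coreceptors: Cr2 binds complement-coated antigen and lowers the threshold for activation, while Cd22 binds sialic acid and dampens the signal. Pax5 is the transcription factor that holds cells in the B lineage. The heart contains a resident and a circulating population of B cells, which are few beside muscle, endothelial and stromal cells, so their transcripts are expected at low levels in a whole-tissue library.

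The members lie on 7 chromosomes and are not neighbours in a common cluster. In the GENCODE annotation of GRCm38, the protein-coding genes are Cd79a (ENSMUSG00000003379, chr7:24897381-24902197), Cd79b (ENSMUSG00000040592, chr11:106311341-106314762), Ms4a1 (ENSMUSG00000024673, chr19:11249675-11266241), Cd22 (ENSMUSG00000030577, chr7:30865402-30880342), Cr2 (ENSMUSG00000026616, chr1:195136811-195176716), Pax5 (ENSMUSG00000014030, chr4:44524757-44710487), Blk (ENSMUSG00000014453, chr14:63372836-63417037), Fcer2a (ENSMUSG00000005540, chr8:3681737-3694175) and Fcrla (ENSMUSG00000038421, chr1:170917576-170927583). Ms4a1, Cd22 and Pax5 overlap annotated transcripts on the opposite strand, Pax5 also contains a microRNA gene on its own strand, and Fcrla overlaps a processed pseudogene. These overlaps are of whole gene spans, not of exons, and whether the counting used strand is not given in the sources used here. How far the reads of these 4 genes include those of their overlapping partners is therefore not known.

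RefSeq promoters, from 250 bases before to 50 bases after the RefSeq start, were matched for 6 of the 9 members, namely Cd79a, Cd22, Cr2, Pax5, Fcer2a and Fcrla. The RefSeq starts did not all match the GENCODE spans given above. The Cd22 window lay inside the Cd22 span, away from its upstream end, and the Pax5 window lay wholly outside the Pax5 span. The following 3 windows are shown because Pax5 carried the clearest difference between the groups, Cd22 held the only match to the EBF1 motif, and Cd79a encodes a defining receptor chain. They are written 5′ to 3′ on the strand of the gene (GRCm38.p6). Capitals mark matches, on either strand, to the motifs searched.
Pax5 promoter, minus strand, chr4:44710645-44710944: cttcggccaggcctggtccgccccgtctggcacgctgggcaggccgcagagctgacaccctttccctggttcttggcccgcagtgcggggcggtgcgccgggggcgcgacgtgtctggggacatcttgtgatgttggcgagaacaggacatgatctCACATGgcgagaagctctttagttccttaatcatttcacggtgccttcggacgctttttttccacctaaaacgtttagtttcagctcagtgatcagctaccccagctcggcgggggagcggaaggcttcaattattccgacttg
Cd22 promoter, minus strand, chr7:30878979-30879278: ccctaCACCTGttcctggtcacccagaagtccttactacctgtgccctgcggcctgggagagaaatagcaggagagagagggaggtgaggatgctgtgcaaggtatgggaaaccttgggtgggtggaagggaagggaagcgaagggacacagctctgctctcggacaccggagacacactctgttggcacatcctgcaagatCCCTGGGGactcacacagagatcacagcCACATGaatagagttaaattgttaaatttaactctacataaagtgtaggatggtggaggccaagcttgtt
Cd79a promoter, plus strand, chr7:24897247-24897546: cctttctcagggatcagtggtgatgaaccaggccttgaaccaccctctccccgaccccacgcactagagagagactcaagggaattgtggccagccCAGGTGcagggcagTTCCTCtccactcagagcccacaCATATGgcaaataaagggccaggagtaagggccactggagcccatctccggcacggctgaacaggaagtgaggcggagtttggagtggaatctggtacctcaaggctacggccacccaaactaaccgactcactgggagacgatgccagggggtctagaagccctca

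The motifs searched were the octamer ATGCAAAT, the EBF1 motif CCCNNGGG, the PU.1 motif GAGGAA and the E box CANNTG, and no match overlapped another in the windows of the members, of which Fcer2a had 3. The octamer was in the windows of 0 of the 6 matched members and in 1.74% of all 32851 RefSeq promoter windows. The EBF1 motif was in 1 of 6, as CCCTGGGG 48 bases before the RefSeq start of Cd22, and in 13.7% of all windows. The PU.1 motif was found, as its reverse complement, in Cd79a and Fcrla, against 28.3% of all windows, and the E box was in all 6 members, against 72.3% of all windows. These matches describe letters of the windows and do not locate binding.

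The summed level of the 9 genes was lower in case and treatment hearts than in control hearts. Together the members had 45, 47, 46 and 44 reads in treatment libraries a to d, against 18, 16, 15 and 46 reads in case libraries a to d. The control libraries a to c had 122, 86 and 88 reads. All treatment and all case libraries therefore lay below every control library, and the treatment libraries lay above case libraries a, b and c and at about the level of case library d. Scaled to reads per 1000000 reads counted (RPM), the sum averaged 1.51 ± 0.0626 RPM in the treatment group (SD, n = 4), 0.766 ± 0.532 in the case group (SD, n = 4) and 3.17 ± 0.598 in the control group (SD, n = 3). The mean of the case group was 4.14-fold lower than that of the control group, the treatment mean was 1.97 times the case mean, and the treatment mean was 2.1-fold lower than the control mean. In whole tissue, fewer B cells and less of these transcripts per B cell cannot be told apart.

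**Figure D1:**
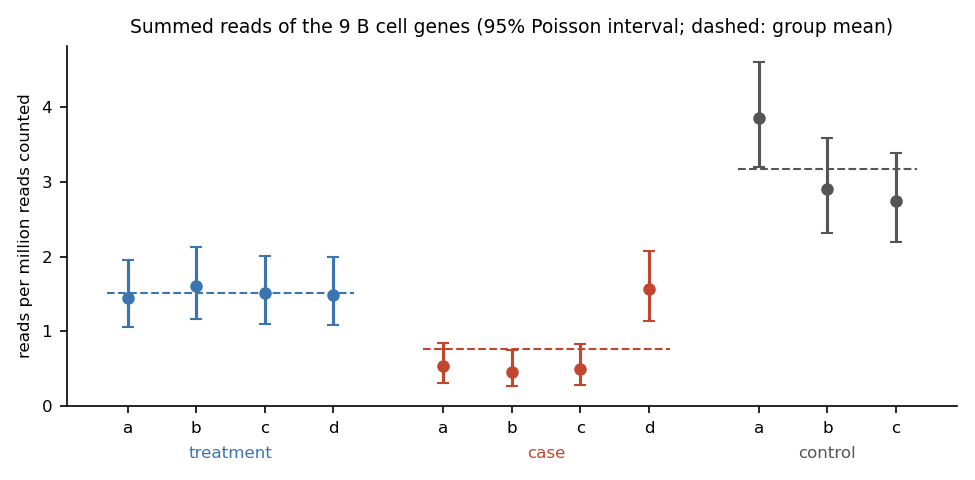
Summed RPM of the 9 B cell genes (y axis) in each library (x axis, letters a to d), with the exact 95% Poisson interval of the count as bars and the group mean as a dashed line. Case libraries a, b and c lay between 0.465 and 0.534 RPM, case library d at 1.56 and the treatment libraries between 1.45 and 1.60, while the control libraries lay between 2.74 and 3.85.

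Case library d stood apart from the other case libraries beyond these 9 genes. On the first principal component of log2 CPM over all tested genes, which held 42.7% of the variance, case libraries a, b and c scored 60.68, 64.64 and 29.71. Case library d scored -9.81, and the treatment and control libraries scored between -27.71 and -9.94. The count of members in library d, with its interval of 1.14 to 2.08 RPM, did not overlap the intervals of the other case libraries, whose upper bounds were 0.755 to 0.843. These intervals cover counting error only. Without library d the case mean was 0.501 ± 0.0344 RPM (SD, n = 3), 6.33-fold lower than in the control group, and the treatment mean was 3.01 times the case mean. For the members and the other genes named, values without library d are given where it changed a call. Leaving out library d raised the number of calls over all genes as well. A fall in case against control was then called for 2175 of 13997 genes, against 1061 of 14050 with all libraries. Without the filter these were 2117 of 17393 and 962 of 17471.

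The members differed in level among themselves. In the control group, on the FPKM scale that corrects for transcript length, Cd79b was highest at 0.596 ± 0.0949 (SD, n = 3, as for the other control values). Fcrla at 0.107 ± 0.0801, Cd79a at 0.105 ± 0.082, Fcer2a at 0.0866 ± 0.062, Pax5 at 0.0842 ± 0.0212, Cd22 at 0.0769 ± 0.016, Blk at 0.0625 ± 0.0343 and Ms4a1 at 0.0462 ± 0.0278 followed, and neighbours in that order lay within each other's spread. Cr2 was lowest at 0.0144 ± 0.00412. Of the member reads, Cd79b supplied the largest share in the treatment group, 29.1% of 182 reads, and Blk in the case group, 31.6% of 95 reads. In the control group Cd79b and Pax5 led with 27.0% and 23.6% of 296 reads, and Blk supplied 5.41%.

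Because the counts were low, only Cd79b, Cd22 and Pax5 passed the filter on low counts that precedes the test over all genes. Pax5 passed only through the control group, where it was highest, Cd79b had enough reads in the treatment group too, and Cd22 passed through control libraries a and b together with treatment library b, so that passing is not evidence of a difference. All 9 members were therefore also read from the same model fitted without the filter to the 17471 genes with at least 1 read. Log2 fold changes are given with an approximate standard error, the absolute log2 fold change divided by the square root of its F statistic. Adjusted p-values are those of the edgeR quasi-likelihood test with Benjamini-Hochberg adjustment over all genes in the fit.

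**Figure D2:**
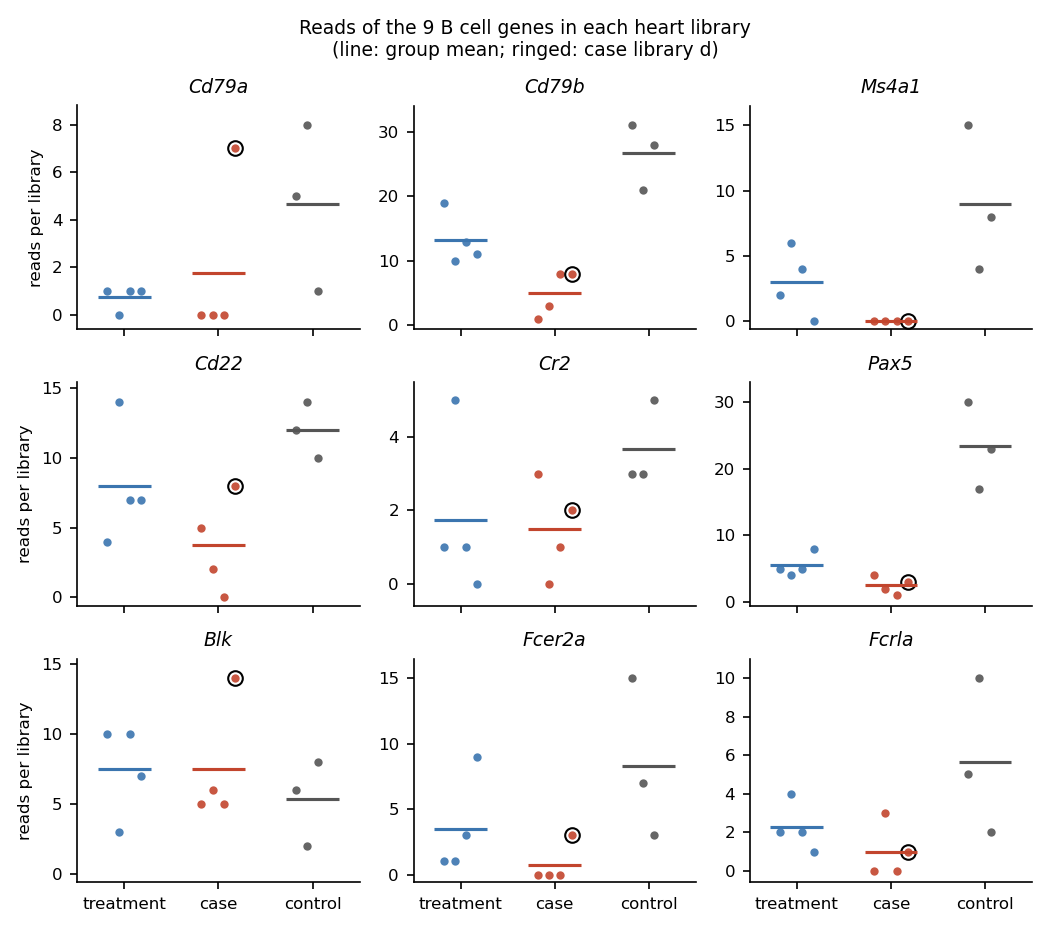
Reads per library (y axis) of each of the 9 B cell genes in the treatment, case and control groups (x axis), with 1 point per library, the group mean as a line and case library d ringed. Pax5 and Cd79b were lower in every case and treatment library than in any control library, Ms4a1 had 0 reads in all 4 case libraries, and Blk overlapped across the groups.

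Comparison of the case with the control group addressed how the stress procedure was associated with these transcripts. Pax5 and Cd79b fell and Cd22 did not pass the test. A fall in this comparison was called for 7.55% of the 14050 genes tested after the filter. Without the filter, Pax5, Cd79b and Ms4a1 fell, and 8 of the 9 members were fitted lower with a median log2 fold change of -2.39, while the median over all genes tested was 0.01. Of all genes in the fit without the filter, 5.51% fell. In 5 of the 9 members, Cd79b, Ms4a1, Cd22, Cr2 and Pax5, every case library lay below every control library in RPM, as did 9.54% of all genes with a read.

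Pax5 had 4, 2, 1 and 3 reads in case libraries a to d, against 30, 17 and 23 reads in control libraries a to c. No case library came near the lowest control library, and the pooled level was 9.54-fold lower in the case group. The log2 fold change was -3.18 ± 0.474 (edgeR adjusted p = 0.0021). The call remained whichever single library was left out, with edgeR adjusted p-values from 0.0011 to 0.0174. It was lost when limma was applied to log2(FPKM + 1), where the pseudocount exceeds every value of the gene (adjusted p = 0.155).

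Of the receptor chains, Cd79b had 1, 3, 8 and 8 reads in the case libraries, against 31, 21 and 28 reads in the control libraries. The groups did not overlap, the pooled level was 5.45-fold lower in the case group, and the log2 fold change was -2.39 ± 0.516 (edgeR adjusted p = 0.0123). Without control library a the call was lost (-2.28, adjusted p = 0.0554). Its partner Cd79a had 0, 0, 0 and 7 reads in the case libraries, against 5, 8 and 1 in the control libraries. All reads of Cd79a in the case group thus came from library d, the groups overlapped, and the log2 fold change without the filter was -1.38 ± 1.193 (edgeR adjusted p = 0.495). With library d left out, Cd79a fell, with 0 reads in the other 3 case libraries (edgeR adjusted p = 0.0321). A floor of 3 reads over these libraries equals 0.0306 RPM.

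Ms4a1, which encodes the surface protein CD20 of mature B cells, had 0 reads in all 4 case libraries, against 15, 4 and 8 reads in the control libraries. A floor of 3 reads over the 127343648 reads of the case group equals 0.0236 RPM. The pooled level of Ms4a1 in the control group was 12.3 times that floor. This ratio leaves out the counting error of the control reads and the spread between mice, and is no lower bound. The fall passed the test without the filter (edgeR adjusted p = 0.021), and the call was lost without control library a (adjusted p = 0.0837) or control library c (adjusted p = 0.0588) and with limma on log2(FPKM + 1) (adjusted p = 0.112). The fitted log2 fold change of this gene depends on the count added to the zeros and is no estimate of its size.

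Among the coreceptors, Cd22 had 5, 2, 0 and 8 reads in the case libraries, against 12, 14 and 10 reads in the control libraries. The groups did not overlap, but the log2 fold change of -1.67 ± 0.709 did not pass (edgeR adjusted p = 0.129). Without case library d, Cd22 fell, with a log2 fold change of -2.34 (adjusted p = 0.0356), and this call was lost when the filter was dropped too (adjusted p = 0.0521). Cr2, the complement receptor CD21, had 3, 0, 1 and 2 reads in the case libraries, against 3, 3 and 5 in the control libraries, and its log2 fold change without the filter was -1.24 ± 1.006 (adjusted p = 0.466). The highest case and the lowest control libraries of Cr2 held the same number of reads and were separated by depth alone.

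Fcer2a, the low-affinity IgE receptor CD23, had 0, 0, 0 and 3 reads in the case libraries, against 15, 7 and 3 reads in the control libraries. The fitted log2 fold change was -3.28 ± 1.161 (edgeR adjusted p = 0.0857, without the filter), and with case library d left out Fcer2a fell (adjusted p = 0.0174). Fcrla, an intracellular Fc receptor-like protein of B cells, had 0, 3, 0 and 1 reads in the case libraries, against 5, 10 and 2 reads in the control libraries. Its log2 fold change of -2.40 ± 0.994 did not pass (adjusted p = 0.139). Blk was the only member fitted higher. It had 5, 6, 5 and 14 reads in the case libraries, against 6, 2 and 8 reads in the control libraries, and the groups overlapped, with a log2 fold change of 0.48 ± 0.657 (adjusted p = 0.676) that was -0.02 without case library d. Blk is a Src family kinase that is also found in some T cells.

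**Figure D3:**
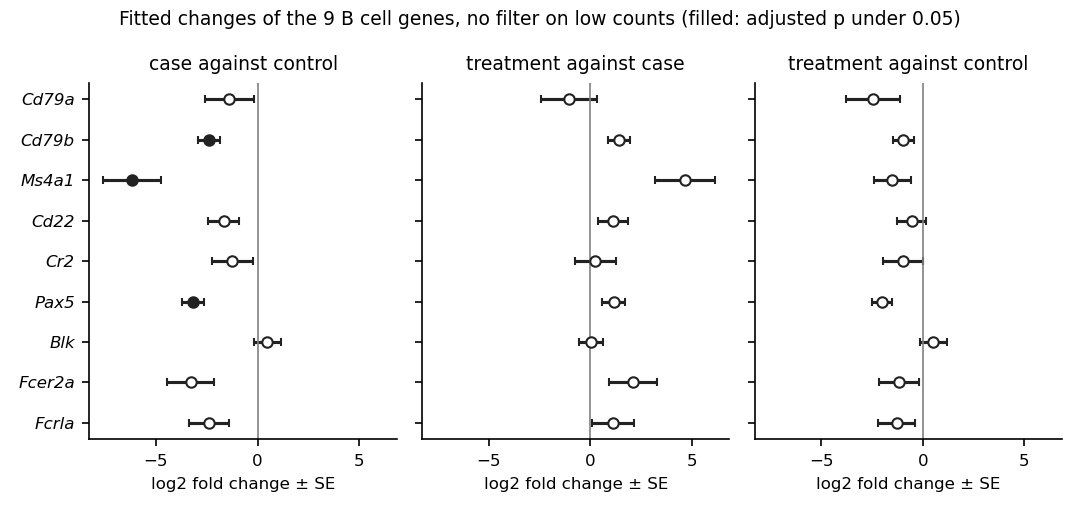
Log2 fold changes (x axis, points) with approximate standard errors (bars) of the 9 B cell genes (y axis) in the fit without a filter on low counts, for the 3 comparisons. Filled points passed the threshold on the adjusted p, namely Cd79b, Ms4a1 and Pax5 in case against control, and no member passed it in the other comparisons; the positions of Ms4a1 against the case group depend on the count added to its zeros.

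Comparison of the treatment with the case group addressed whether JWH133 changed these transcripts under stress. No member passed the test. The count was 0 of 3 members with the filter, of which 2 had an unadjusted p under 0.05, and 0 of 9 without it, again with 2 under 0.05. DESeq2 gave 0 calls among the 4 members for which it returned an adjusted p. A rise in this comparison was called for 4.33% of all genes after the filter and for 3.16% without it. Without the filter, 8 of the 9 members were fitted higher in the treatment group, with a median log2 fold change of 1.13, while the median over all genes in that fit was 0.0016. Every treatment library lay above every case library for Cd79b and Pax5, as for 5.11% of all genes with a read.

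Cd79b had 19, 10, 13 and 11 reads in the treatment libraries, against 1, 3, 8 and 8 reads in the case libraries. The pooled level was 2.8 times that of the case group, and the log2 fold change of 1.42 ± 0.511 did not pass (edgeR adjusted p = 0.0871). Without case library d, Cd79b rose, with a log2 fold change of 1.74 (adjusted p = 0.036), and it was the only member called in that setting. A rise was called there for 2125 of 13997 genes tested, against 608 of 14050 with all libraries. Pax5 had 5, 4, 5 and 8 reads in the treatment libraries, against 4, 2, 1 and 3 in the case libraries. The groups touched at 4 reads, were separated by depth alone, and gave a log2 fold change of 1.15 ± 0.512 (adjusted p = 0.152).

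Ms4a1 had 2, 6, 4 and 0 reads in the treatment libraries, against 0 reads in every case library. It was detected in 3 of 4 treatment libraries, and its pooled level was 4.22 times the floor of the case group. The difference did not pass the test (edgeR adjusted p = 0.0818, without the filter). Cd22 had 4, 14, 7 and 7 reads in the treatment libraries, against 5, 2, 0 and 8 in the case libraries. The Cd22 groups overlapped, with a log2 fold change of 1.12 ± 0.694 (adjusted p = 0.298). Fcer2a had 1, 1, 3 and 9 reads in the treatment libraries, against 0, 0, 0 and 3 in the case libraries, with a log2 fold change of 2.10 ± 1.182 (adjusted p = 0.290, without the filter).

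Fcrla had 2, 4, 2 and 1 reads in the treatment libraries, against 0, 3, 0 and 1 in the case libraries, with a log2 fold change of 1.13 ± 1.023 (edgeR adjusted p = 0.522, without the filter). The remaining members were close to each other in these groups or went the other way. Cr2 had 1, 5, 1 and 0 reads in the treatment libraries, against 3, 0, 1 and 2 in the case libraries (log2 fold change 0.26 ± 1.020), and Blk had 10, 3, 10 and 7 reads in the treatment libraries, against 5, 6, 5 and 14 in the case libraries (0.04 ± 0.587). Cd79a had 1, 0, 1 and 1 reads in the treatment libraries, against 0, 0, 0 and 7 in the case libraries. Its log2 fold change was -1.06 ± 1.376 with case library d and 2.83 without it, so that this library decided the sign.

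Comparison of the treatment with the control group showed how far the stressed, JWH133-injected mice lay from unstressed mice. In the fit with the filter, which Pax5 passed only through the control group, Pax5 fell and Cd79b and Cd22 did not pass the test. A fall in this comparison was called for 0.79% of all genes after the filter. Without the filter 0 of the 9 members passed and 1 had an unadjusted p under 0.05, while 0.624% of all genes fell, and DESeq2 called 1 of the 9. In that fit, 8 of the 9 members were fitted lower, with a median log2 fold change of -1.18. Every treatment library lay below every control library for Cd79b and Pax5, as for 7.73% of all genes with a read. The same control libraries entered the comparison of the case group, so the 2 comparisons are not independent.

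Pax5, with 5, 4, 5 and 8 reads in the treatment libraries against 30, 17 and 23 in the control libraries, was 4.11-fold lower in the treatment group. The log2 fold change was -2.02 ± 0.43 (edgeR adjusted p = 0.0487), just under the threshold. The call was lost when any single treatment library was left out (edgeR adjusted p = 0.0592 to 0.144), when any single control library was left out (0.131 to 0.243) and without case library b (0.0515). It was also lost without the filter (0.0902), with a robust spread (0.0569) and with limma on log2(FPKM + 1) (adjusted p = 0.541). The highest treatment library had 8 reads and the lowest control library had 17.

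Cd79b had 19, 10, 13 and 11 reads in the treatment libraries, against 31, 21 and 28 reads in the control libraries. These groups did not overlap, yet the log2 fold change of -0.97 ± 0.471 did not pass (edgeR adjusted p = 0.479). Cd22, with 4, 14, 7 and 7 reads in the treatment libraries, overlapped the control libraries with 12, 14 and 10 (log2 fold change -0.55 ± 0.655, adjusted p = 0.837). Of the members left out by the filter, Cd79a had 3 reads in the treatment group as a whole, against 14 in the control group. Ms4a1 had 12 reads in the treatment group against 27 in the control group, and Fcer2a had 14 against 25. Fcrla had 9 reads in the treatment group against 17 in the control group, and Cr2 had 7 against 11. These 5 genes were fitted lower, with log2 fold changes from -2.44 (Cd79a) to -0.98 (Cr2) and edgeR adjusted p-values from 0.596 to 0.801. Blk had 30 reads in the treatment group against 16 in the control group (log2 fold change 0.52 ± 0.657, adjusted p = 0.844).

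Other genes used by B cells that passed the filter did not all move in the same direction. Of 24 further B cell genes 14 were tested, and in the case group 2 rose and 3 fell against the control group, with a median log2 fold change of -0.33. The filter left out the other 10. Without it, 15 of 23 were fitted lower in case against control, with a median of -0.46, as were 46.81% of all genes. In treatment against case, 4 of 23 were fitted lower in that fit, with a median of 0.52. Bank1, a scaffold protein of B cell receptor signalling, fell, with 18, 12, 39 and 89 reads in the case libraries against 124, 122 and 147 in the control libraries (log2 fold change -1.74 ± 0.502, edgeR adjusted p = 0.0377). Bank1 had 104, 66, 112 and 114 reads in the treatment libraries, and its log2 fold change in treatment against case was 1.36 with all libraries, which did not pass, and 2.14 without case library d, where it rose (adjusted p = 0.0011). Lyn (-0.47) and Ralgps2 (-0.39) fell and Syk (0.52) and Cd24a (1.30) rose in the case group. Lyn and Syk are kinases that also act in myeloid cells, and Cd24a is abundant in erythroid and epithelial cells. The calls of Bank1, Lyn and Ralgps2 each remained in 2 of the 11 fits that left out a library. The rise of Cd24a was lost without case library a or control library a or c (adjusted p = 0.0555 to 0.0914), and that of Syk remained in all 11. With only the 2 groups compared the calls of Bank1 (edgeR adjusted p = 0.102), Lyn (0.103), Ralgps2 (0.112) and Cd24a (0.0569) were lost. Those of Lyn and Ralgps2 were also lost with limma (adjusted p = 0.0712 to 0.088), and that of Ralgps2 without the filter (0.0538).

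Against the case group, Syk fell (-0.55) in the treatment group and no other gene of these 14 passed in the edgeR fit with all libraries, while DESeq2 with all libraries also called Bank1 higher (1.36, adjusted p = 0.0248). Without case library d Lyn (0.36, edgeR adjusted p = 0.0203) rose as well, beside Bank1. Against the control group, Cd24a (1.61) rose in the treatment group and the other 13 did not pass, and this call remained in 5 of the 11 fits that left out a library and was lost with limma on log2(FPKM + 1) (adjusted p = 0.0516). Cnr2, which encodes the receptor CB2R that JWH133 activates, averaged 0.307 ± 0.0601 FPKM in the treatment group (SD, n = 4), 0.308 ± 0.119 in the case group (SD, n = 4) and 0.263 ± 0.101 in the control group (SD, n = 3), and did not pass in any comparison.

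Of 11 transcription factors of the lineage other than Pax5, 9 were tested after the filter, and 1 rose in the case group against the control group, namely Bach2 (0.78), a repressor that restrains plasma cell formation and is also active in T cells. The call of Bach2 remained in 5 of the 11 fits that left out a library and was lost with only the 2 groups compared (edgeR adjusted p = 0.0846). In the edgeR fit with all libraries neither comparison of the treatment group gave a call. Without case library d, in treatment against case, Bach2 fell (-0.70, edgeR adjusted p = 0.0135) and Ebf1 rose (0.22, adjusted p = 0.0492), and DESeq2 with all libraries also called Bach2 lower (adjusted p = 0.0455). The median log2 fold changes were -0.02 in case against control and 0.16 in treatment against case. Ebf1, which acts upstream of Pax5 in B cells, had 1788 to 1876 reads in the treatment libraries, 1484 to 2078 in the case libraries and 1666 to 1821 in the control libraries. Ebf1 is also expressed by adipocyte precursors and pericytes, and its reads exceeded those of Pax5 in every library. The factors left out by the filter, Spib and Pou2af1, had fewer reads than Pax5 in the control libraries. Spib, an Ets family factor of B cells and plasmacytoid dendritic cells, had 5, 5, 2 and 3 reads in the treatment libraries, against 2, 2, 0 and 1 in the case libraries and 14, 3 and 13 in the control libraries. In the fit without the filter Spib fell in case against control (-2.88, edgeR adjusted p = 0.0358) and did not pass in treatment against case (0.260); it was named after its values were seen. Pou2af1, a coactivator of octamer-binding factors, had 2, 0, 10 and 1 reads in the treatment libraries, 11, 0, 1 and 4 in the case libraries and 8, 8 and 7 in the control libraries, and did not pass in any comparison of that fit.

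Genes of antibody-secreting cells were read beside the members as well. Of 18 immunoglobulin and plasma cell genes, 8 were matched by symbol and the 10 immunoglobulin chains were not analysed here. Of the 6 tested, none passed in case against control with all libraries, and Prdm1, a repressor that drives plasma cell formation and also acts in T cells and macrophages, fell without case library d (-1.37, edgeR adjusted p = 0.00049). Against the case group, Prdm1 (1.30) and Irf4 (0.99) rose in the treatment group, and of the 11 fits that left out a library the call remained in 4 for Prdm1 and in 1 for Irf4. With all libraries the call of Irf4 was lost without the filter (edgeR adjusted p = 0.0523), with a robust spread (0.0502) and with only the 2 groups compared (0.0907), and that of Prdm1 with only the 2 groups compared (0.0772). Irf4 was called higher in treatment against control by DESeq2 (1.17, adjusted p = 0.018) and with only the 2 groups compared (edgeR adjusted p = 0.0188), and did not pass there in the edgeR fit of all groups. Prdm1 had 216, 271, 262 and 196 reads in the treatment libraries, against 53, 75, 78 and 188 in the case libraries and 209, 152 and 165 in the control libraries. Among the case libraries, library d was the highest and lay within the range of the control libraries. Jchain, which joins the chains of secreted IgM and IgA, had 5, 8, 5 and 7 reads in the treatment libraries, against 19, 10, 12 and 17 in the case libraries and 5, 11 and 7 in the control libraries. Its log2 fold changes were 0.88 in case against control and -1.15 in treatment against case, and neither passed (edgeR adjusted p = 0.193 and 0.0873).

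Among ligands that attract or sustain B cells, Cxcl13, the chemokine that draws B cells into follicles, rose in the case group. It had 200, 16, 59 and 5 reads in the case libraries, against 0 reads in every control library (edgeR adjusted p = 0.0304), and 13, 5, 0 and 0 reads in the treatment libraries. Cxcl13 passed the filter on low counts through the case group, where it was highest, so that passing is not evidence of a difference. The case libraries all lay above the control libraries but spread widely, and the call was lost without case library a or any control library (adjusted p = 0.0592 to 0.0898), with limma on log2(FPKM + 1) (0.101) and with only the 2 groups compared (0.0705). In treatment against case Cxcl13 did not pass with all libraries (edgeR adjusted p = 0.0688) and fell without case library d (adjusted p = 0.012). The other 5 tested ligands did not pass in any comparison.

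The MHC class II genes, which B cells share with dendritic cells and macrophages, were all fitted lower in case than in control hearts, 10 of 10 without the filter. Of the 9 tested, H2-Ob, a chain of the peptide-loading modulator H2-O that is found mainly in B cells, fell (-1.93, edgeR adjusted p = 0.0162), with 6, 6, 11 and 7 reads in the case libraries against 40, 12 and 35 in the control libraries. The call of H2-Ob was lost without control library a (adjusted p = 0.0826) or c (0.0685), with limma on log2(FPKM + 1) (0.0932) and with only the 2 groups compared (0.0543). The median log2 fold change of the tested genes was -0.75 in case against control and 0.63 in treatment against case, and no gene of the list passed in the comparisons of the treatment group in the edgeR fit with all libraries. In treatment against case H2-Ob was called higher by DESeq2 with all libraries (1.42, adjusted p = 0.035) and in 1 of the 11 fits that left out a library. The summed level of the list was 53.9 and 40.0 RPM in case libraries a and b, and 171 and 176 in case libraries c and d, which lay within the range of 136 to 206 of the control libraries. Cd74, its most abundant member, had 831, 711, 2198 and 2194 reads in the case libraries, against 2690, 1606 and 2011 in the control libraries.

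Markers of other cells in the tissue were read beside the members. The pan-leukocyte genes summed to 89.6 to 133 RPM in the treatment libraries, 60.8 to 143 in the case libraries and 85.0 to 86.9 in the control libraries. Every treatment library thus lay above every control library, and none of the 6 genes passed in that comparison in the edgeR fit with all libraries. In case against control 1 of 6 rose (Cd53, 0.68) and none fell. The call of Cd53 was lost without control library a (edgeR adjusted p = 0.0687) or c (0.0779), or with only the 2 groups compared (0.0522). Ptprc, which encodes CD45, gave a log2 fold change of 0.16 in case against control that did not pass, and it rose in treatment against case without case library d (0.74, adjusted p = 0.019) and in treatment against control with only the 2 groups compared (0.58, adjusted p = 0.0457). Within the case group library d had the highest of these sums, 143 RPM, and library b the lowest. None of 7 tested T cell markers passed in case against control, and Cd2 fell (-2.77) in treatment against case, a call that was lost without treatment library b or d or case library a (edgeR adjusted p = 0.0525 to 0.0598) or with limma on log2(FPKM + 1) (0.0553). Cd2 passed the filter on low counts through the case group, where it was highest. Cd3e had 5, 9, 5 and 10 reads in the treatment libraries, 12, 4, 22 and 10 in the case libraries and 5, 7 and 2 in the control libraries. No marker of natural killer cells or of the thymus passed the filter, and Rag1, Dntt and Foxn1 had 0 reads in all 11 libraries.

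Markers of red cells, neutrophils and platelets were read in the same way. The erythroid genes summed to 627 to 1350 RPM in the treatment libraries, 482 to 849 in the case libraries and 176 to 211 in the control libraries. In case against control 6 of 7 rose, in treatment against control 5 of 7 rose, and in treatment against case none passed. The neutrophil markers summed to 5.64 to 17.1 RPM in the treatment libraries, 6.40 to 14.5 in the case libraries and 2.60 to 3.16 in the control libraries. Retnlg and S100a8 rose in case against control, calls that remained in 9 and 8 of the 11 fits that left out a library, and S100a8 also rose in treatment against control without case library d (edgeR adjusted p = 0.0487), without treatment library b (0.0152) and with only the 2 groups compared (0.0326). DESeq2 called both higher in treatment against control (adjusted p = 0.00822 for Retnlg and 0.000851 for S100a8). The platelet genes summed to 19.1 to 88.3 RPM in the treatment libraries, against 7.09 to 17.9 in the case libraries and 10.3 to 12.9 in the control libraries. In treatment against case 3 of 4 rose, Ppbp, Itga2b and Gp9, calls that remained in 11, 10 and 9 of those 11 fits, and the same 3 rose in treatment against control, calls that remained in 7, 8 and 6 of those fits. Gp9 passed the filter on low counts through the treatment group, where it was highest. With limma on log2(FPKM + 1) the calls of Itga2b were lost in treatment against case (adjusted p = 0.0588) and in treatment against control (0.0927), and that of Gp9 in treatment against control (0.0723). With only the 2 groups compared those of Itga2b (edgeR adjusted p = 0.0645) and Gp9 (0.0539) in treatment against case were lost. None of the 4 passed in case against control, where Itga2b was called higher with only the 2 groups compared (edgeR adjusted p = 0.0436) and without treatment library d (0.0389). The part of blood content in the levels of the B cell genes was not tested.

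**Figure D4:**
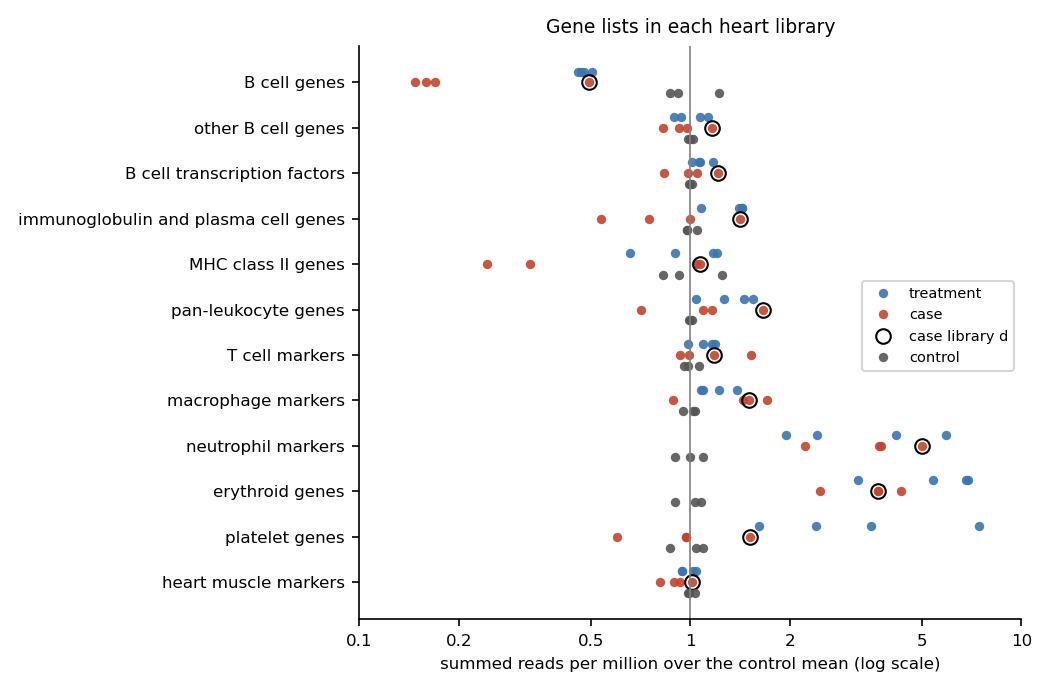
Summed RPM of 12 gene lists (y axis) in each library, divided by the mean of the control libraries (x axis, log scale), with 1 point per library in the treatment, case and control groups and case library d ringed. For the B cell genes all treatment and case libraries lay left of the control libraries, while for the erythroid genes and the neutrophil markers they all lay right of them. The adipocyte and plasmacytoid dendritic cell markers are not drawn, and all their treatment and case libraries also lay below the control libraries.

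In the remaining lists, 1 of 8 macrophage markers rose in case against control and fell in treatment against case, namely Mrc1, and 1 of 4 tested markers of plasmacytoid dendritic cells fell in case against control, namely Tcf4. The call of Tcf4 remained in 5 of the 11 fits that left out a library, that of Mrc1 in 9 in case against control and in 6 in treatment against case, and Tcf4 rose in treatment against case without case library d (0.32, edgeR adjusted p = 0.0081). With only the 2 groups compared the calls of Tcf4 (edgeR adjusted p = 0.0902) and of Mrc1 (0.0536 in case against control and 0.0733 in treatment against case) were lost. With limma that of Tcf4 and that of Mrc1 in treatment against case were lost (adjusted p = 0.0509 to 0.0696). No adipocyte marker passed. The adipocyte markers summed to 0.612 to 1.49 RPM in the treatment libraries, 0.436 to 1.38 in the case libraries and 1.51 to 1.76 in the control libraries. The plasmacytoid dendritic cell markers summed to 400 to 430, 316 to 426 and 432 to 446 RPM in the same order. In both lists, as in the B cell genes, every treatment and case library thus lay below every control library. The markers of heart muscle summed to 48800 to 54000 RPM in the treatment libraries, 41900 to 52100 in the case libraries and 51000 to 53200 in the control libraries. The defining markers of the labelled tissue were thus abundant in every library, and of the 6 muscle markers 1 fell in the case group against the control group, namely Myl2, whose call remained in 3 of the 11 fits that left out a library and which rose in treatment against case without case library d (0.24, edgeR adjusted p = 0.0442) and by DESeq2 with all libraries (0.23, adjusted p = 0.046). Its fall was lost without the filter (edgeR adjusted p = 0.0607), with only the 2 groups compared (0.0707) and with limma on log2(FPKM + 0.1) (0.0741).

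The genes whose pattern was nearest to the members were sought over the 11 libraries as a description. The mean standardized profile of Cd79b, Cd22 and Pax5 was compared with each of 14047 other tested genes by the root mean square difference of standardized log2 CPM. The nearest were Nes at 0.158, Krt222, Foxo6, Prr33, Ttyh2, Septin9, Galnt11, Neil3, Pxdn and Dach1 at 0.232, against a median of 1.33 over all genes. Nes had 1548 to 1734 reads in the treatment libraries, 705 to 1789 in the case libraries and 3128 to 3534 in the control libraries. None of the 10 was on another list of B cell genes, and of those lists the nearest gene was Lyn at rank 275, followed by Bank1 at rank 609. The points share libraries and their depth, and the profile rests on 3 genes with few reads.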

How the data were processed

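Total RNA of heart tissue was sequenced as paired-end libraries from 11 mice, and 11 further samples labelled single were not analysed here. The deposited table gives raw read counts per gene, made by the authors after trimming with cutadapt and alignment; HISAT2, TopHat2 and the build mm10 are named in the submitters' processing notes, and neither the counter nor its use of strand is stated there. FPKM was computed here from the counts, the gene length in the table and the library total, and 11 further columns of values normalized by the authors were not used. The column headers number the groups without naming them: the case and treatment columns were identified from the class that the study gives to the same column names, and the control columns as the remaining group, the one with 3 columns. The headers do not say paired-end or single, and paired-end was taken from the study's methods. Column letters are not tied to replicate numbers. Counts were filtered with filterByExpr (minimum count 10), scaled by TMM and tested with edgeR 4.0.16 in 1 quasi-likelihood model over 3 groups (R 4.3.3), with calls at an adjusted p under 0.05. The scripts were tested on simulated data. Alternatives used DESeq2 1.42.0, limma 3.58.1 on log2(FPKM + 1) and log2(FPKM + 0.1), no filter, a minimum count of 20, only the 2 groups compared, a robust spread, and each library left out. Members and lists were chosen with earlier results of these data known. All 9 members were named in every comparison. Genes of other B cell, plasma cell, ligand, MHC, leukocyte and T cell lists were named when called or when defining markers, and other lists were given by counts; 1 defining marker is not reported here. Likeness used log2 CPM with a prior count of 2. P-values set a difference between groups against the spread between mice within groups, which in the main model is estimated over all 3 groups together. Table coordinates were not used, since they differed from GRCm38 for most members.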

Additional observations from a re-analysis of the deposited data

Results flagged for a closer look

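In 72 groups of 4 libraries, covering the B cell genes, their sum and the other named genes, the highest or lowest library was compared with the rest by Dixon's ratio. Its limit is exceeded by chance in about 1 of 20 groups of normally distributed values. That rate does not hold for low counts with ties, and a group with 0 in all other libraries always exceeds the limit. The limit was exceeded in 6 groups, in 5 of them by case library d. These are not independent, since the sum contains Cd79a, Fcer2a and Blk. Cd79a had 0.163 FPKM in case library d, against 0 in the other case libraries, and Fcer2a had 0.033 FPKM in case library d, against 0 in the others. Blk had 0.176 FPKM in case library d, against 0.0549 to 0.0646 in the others. The summed reads of the 9 B cell genes were 1.56 RPM in case library d, against 0.465 to 0.534 in the others. Tcf4, a marker of plasmacytoid dendritic cells that many other cells express, had 9.93 FPKM in case library d, against 6.72 to 7.03 in the others. In the treatment group Cd79a was at 0.00 FPKM in library b, against 0.0222 to 0.0231 in the others, a difference of 1 read.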

How the results depend on the processing

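No paired analysis was possible because the columns of the table carry no replicate numbers. The number of B cell genes called in case against control was 2, became 1 with a minimum count of 20 (1 member tested) or limma on log2(FPKM + 1), and ranged from 1 to 3 with a library left out. In treatment against case it was 0, and 0 to 1 with a library left out. In treatment against control it was 1, became 0 without the filter, with a minimum count of 20, with limma on log2(FPKM + 1) or with a robust spread, and ranged from 0 to 1 with a library left out. Fits without the filter that changed a further choice were added after seeing the data. Over all genes 2215, 1531 and 152 were called in case against control, treatment against case and treatment against control. With only the 2 groups compared these became 858, 270 and 816, DESeq2 gave 2938, 2540 and 418, and limma on log2(FPKM + 0.1) gave 867 in treatment against case. With a library left out they ranged from 704 to 4479, 373 to 4392 and 21 to 347. The causes were not tested. Values whose sign changed with a library left out were, in case against control, those of Blk (-0.02 to 0.86), Cnr2 (-0.04 to 0.57), Ebf1 (-0.12 to 0.06), Irf4 (0.00 to 0.40), Ptprc (-0.16 to 0.38) and Ppbp (-0.08 to 0.72). In treatment against case they were S100a8 (-0.90 to 0.37, with 0.19 and 0.28 without treatment library c and case library b), Cd79a (-1.46 to 2.83), Cr2 (-1.0 to 0.77, with -0.14 without case library b), Blk (-0.12 to 0.53, with -0.05 and -0.10 without case libraries b and c) and Cnr2 (-0.22 to 0.25, with 0.09 without treatment library d, and 0.00 and 0.03 with limma, pseudocounts 1 and 0.1). In treatment against control they were Syk (-0.06 to 0.02), Cnr2 (-0.01 to 0.54), Jchain (-0.50 to 0.12), Cd74 (-0.26 to 0.14) and Myl2 (-0.10 to 0.01). None of these was called in the setting reported. The members had 0 to 31 reads per library, which limits the precision of every value; the parts of depth and of the spread between mice were not tested.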
